A study of Mus musculus with 12 samples.

Results

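The interferon regulatory factors (IRFs) are a family of transcription factors, and 8 of them were followed here: Irf1, Irf2, Irf3, Irf4, Irf5, Irf7, Irf8 and Irf9. The genes were taken from a list of family members and matched by symbol to their Ensembl identifiers. All 8 were found among the 41388 genes counted in each library.

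IRFs share a DNA-binding domain that recognises GAAA-type repeats, known as interferon-stimulated response elements. IRF3, IRF5 and IRF7 lie downstream of innate immune receptors, IRF9 is the DNA-binding part of the ISGF3 complex below the type I interferon receptor, IRF1 and IRF2 act on overlapping sites as an activator and mostly a repressor, and IRF4 and IRF8 bind with the myeloid factor PU.1. In the osteoclast lineage IRF8 is known as a repressor of differentiation that opposes NFATc1, and its level is known to drop when precursors meet RANKL.

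The libraries were poly(A)-selected RNA-seq of bone marrow cultures from C57BL/6 mice, 12 libraries in 4 groups of 3. Cells were grown for 5 days in alpha MEM with 10% FBS and replated for 2 days in 2% M-CSF, the growth factor of macrophages, either alone (BMM, bone marrow macrophages) or with 50 ng/ml RANKL, the osteoclast-inducing cytokine (OC, osteoclast cultures). In the flox groups the cells carried floxed Asxl2, a chromatin regulator of the Polycomb and PR-DUB field, and in the KO groups they were positive for LysM Cre. Cre driven by the LysM (Lyz2) locus acts in the myeloid lineage, so any cell of another kind in a culture need not have lost Asxl2. None of the 4 groups carried Cre without the floxed gene, so an effect of Cre cannot be told apart from one of Asxl2 loss. The labels do not say whether replicates came from separate mice or cultures, so p-values measure the spread between libraries, which may be technical. In bulk RNA, fewer cells of a type and less RNA per cell cannot be told apart.

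Counts summed to between 18489873 and 21667237 per library, and 3 counts correspond to between 0.138 and 0.162 CPM (counts scaled to a common library size). Replicates differed by more than sampling noise (chi-square per degree of freedom 1.23 to 5.05). This does not tell separate mice from separate preparations of the same cells. The common spread between replicates in edgeR, beyond counting noise, was a coefficient of variation of 2.54%. Asxl2 itself had 93.1 ± 3.01 CPM in flox_BMM, 15.1 ± 0.265 in KO_BMM, 73.4 ± 2.27 in flox_OC and 13.7 ± 1.24 in KO_OC (mean ± SD, n = 3 each), lower in every KO library as labelled. Macrophage markers were abundant in all groups, with 10 genes summing to 33850 to 34780 CPM in flox_BMM, 29730 to 30500 in KO_BMM, 15910 to 16330 in flox_OC and 16870 to 17110 in KO_OC. The 9 osteoclast markers summed to 134.3 to 141.4, 91.0 to 92.2, 393.4 to 416.0 and 183.2 to 195.0 CPM in the same order. Calcr was barely detected: it reached at most 0.04938 CPM in flox_OC and was at 0 in the other groups. Of the 7 osteoclast markers with enough counts to be tested, 6 rose and 1 fell with RANKL in each genotype. The 1 was Itgb3, with log2 fold changes of -1.455 in flox and -0.625 in KO cells. Summed markers of some other cells were also lower in the KO groups. The 8 stromal and osteoblast genes summed to 168.7 to 186.8, 53.3 to 60.1, 142.8 to 146.0 and 42.6 to 52.9 CPM. The 5 megakaryocyte genes summed to 343.3 to 407.7, 48.0 to 52.1, 134.1 to 140.5 and 15.2 to 16.2 CPM, a sum that mainly follows Pf4. Of these genes, Pf4 and Ppbp were lower in KO in both cultures. Itga2b was not: it had 0.103 to 0.227 CPM in flox_BMM and 0.242 to 0.289 in KO_BMM, and its OC groups overlapped. Gp9 and Gp1bb reached at most 0.224 CPM. Whether KO cultures held fewer megakaryocytes was not tested. The 8 granulocyte genes, mostly Mmp8, summed to 77.6 to 82.1, 25.9 to 27.9, 33.5 to 35.4 and 10.1 to 11.9 CPM. Ly6g was at 0 throughout. The 7 T and NK cell genes reached at most 4.89 CPM. The part of these cells in the IRF results was not tested.

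Adding RANKL lowered most of the family, and the genotype moved members in both directions. Changes were tested with edgeR's quasi-likelihood test over the 13030 genes with enough counts, and a gene is called changed where its Benjamini-Hochberg adjusted p is under 0.05. All 8 genes were tested, but Irf4 passed the filter on low counts only through the BMM groups. Its direction with RANKL was thus favoured in advance, and its RANKL calls are counted below without being support. The RANKL medians below include it as well. Without Irf4 the middle member was Irf1 in both genotypes, with log2 fold changes of -0.38 in flox and -0.13 in KO cells. With RANKL in flox cells, 7 of the 8 fell, 0 rose and Irf3 was not called, with a median log2 fold change of -0.39 against -0.004 over all genes. In that comparison 74.8% of all genes were called, 37% higher and 37.8% lower. With RANKL in KO cells, 5 fell (Irf1, Irf2, Irf4, Irf5 and Irf8), 0 rose and 3 were not called, with a median of -0.21 against 0.00. There 70.5% of all genes were called, 35.5% higher and 35% lower. In both RANKL comparisons the count of IRF genes that rose was also 0 at an unadjusted edgeR p under 0.05 and with DESeq2. Scaled by library size alone, 1 member rose in each: this scaling moved the median of all genes to 0.17 in flox and 0.14 in KO, and turned the split of all calls from 4822 higher and 4925 lower to 6320 and 3737 in flox and from 4627 and 4555 to 5970 and 3431 in KO.

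Between genotypes the counts were mixed. In BMM, Irf8 was higher in KO and Irf1, Irf4 and Irf5 were lower, a median of -0.10 against 0.00 over all genes. Here 39.9% of all genes were called, 19.3% higher and 20.6% lower (2513 and 2690 genes, or 3334 and 2228 scaled by library size alone). In OC, Irf2, Irf7 and Irf8 were higher in KO and Irf1 and Irf5 lower, a median of 0.01 against 0.01, where 41.3% of all genes were called, 21.4% higher and 19.9% lower. The RANKL effect differed between the genotypes for 4 members, Irf1, Irf2, Irf7 and Irf8, each less negative in KO cells, a median difference of 0.22 over the 8 members against 0.01. The difference was called for 21.9% of all genes, 12.3% higher and 9.53% lower (1607 and 1242 genes, or 1312 and 1716 scaled by library size alone). No member had a called difference in the other direction, and the count was also 0 at an unadjusted edgeR p under 0.05 and with DESeq2.

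**Figure D1:**
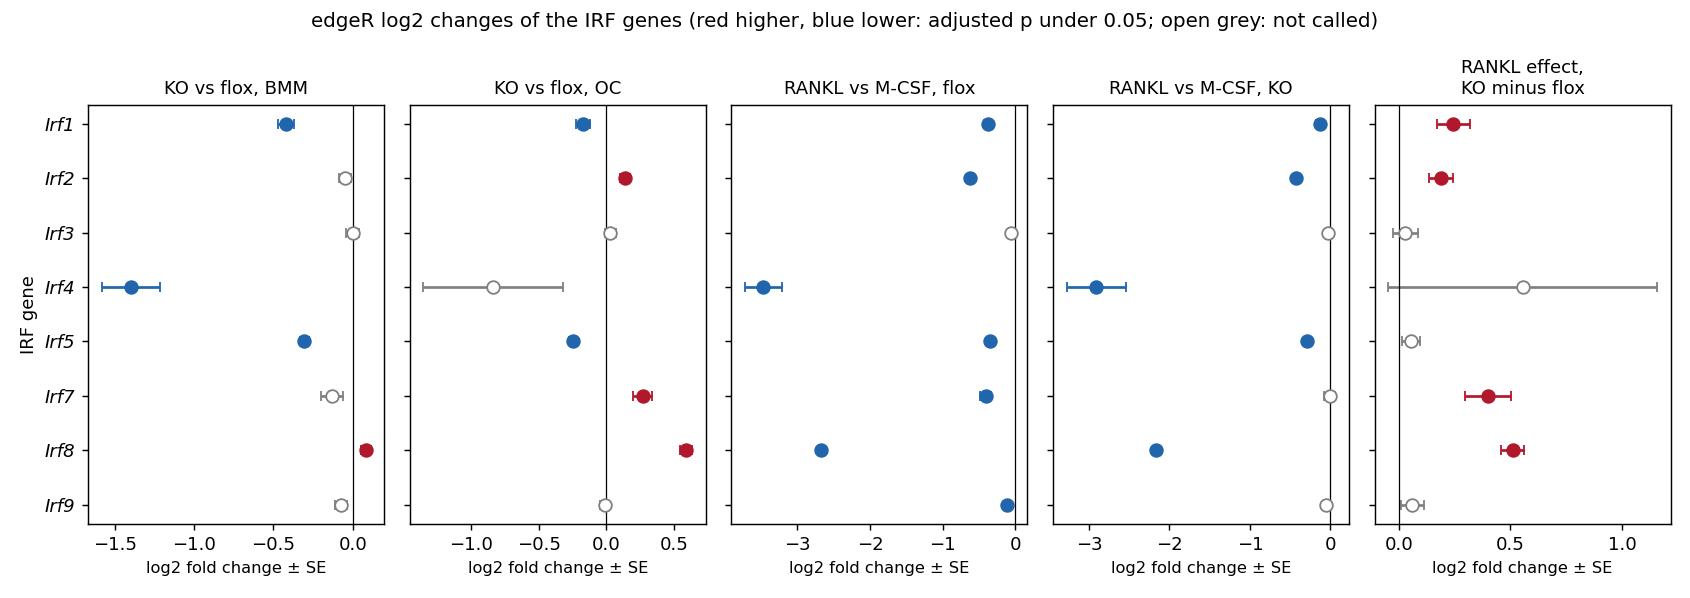
Log2 fold change of each IRF gene with its standard error (horizontal axis, a separate scale in each panel) in the 5 comparisons, from edgeR. Filled red points are called higher and filled blue points called lower at an adjusted p under 0.05, open points are not called. The RANKL panels hold only blue and open points, and Irf4 has the widest errors.

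Per length of transcript, Irf5 was the most abundant member in every group and Irf4 the least. In TPM, which divides counts by exon length, the order in BMM of both genotypes was Irf5, Irf7, Irf2, Irf8, Irf3, Irf9, Irf1 and Irf4. Irf5 had 319.0 ± 5.07 TPM in flox_BMM, Irf8 79.3 ± 1.22 and Irf4 2.45 ± 0.544 (SD, n = 3). Of the 7 neighbouring pairs, only Irf3 (50.3 to 53.7 TPM) and Irf9 (47.3 to 51.7 TPM) overlapped in flox_BMM, and none overlapped in the other 3 groups. In OC of both genotypes Irf8 had moved from the fourth place to the seventh, with 14.0 ± 0.221 TPM in flox_OC and 21.3 ± 0.54 in KO_OC, below Irf1 at 35.4 ± 2.1 and 31.6 ± 1.53. The other members kept their order.

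**Figure D2:**
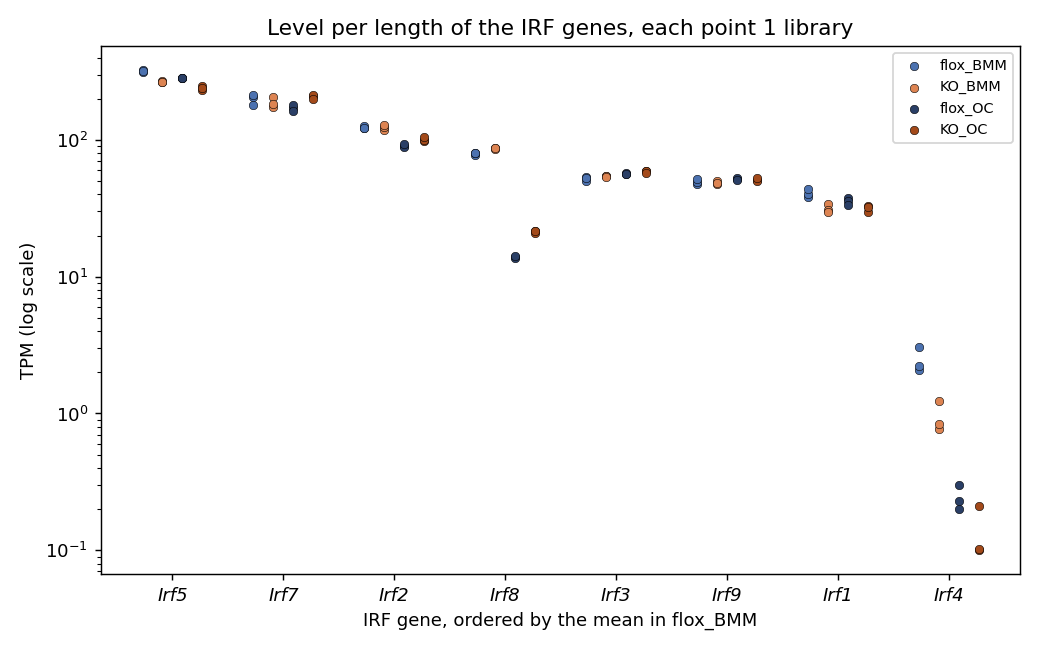
TPM on a log axis for each IRF gene (horizontal axis, ordered by the flox_BMM mean), each point 1 library and each colour 1 group. Irf8 drops from 79.3 TPM in flox_BMM to 14.0 in flox_OC and 21.3 in KO_OC, and Irf4 lies below 4 TPM everywhere.

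Irf8, the PU.1 partner that drives macrophage genes and restrains osteoclast formation, showed the largest RANKL effect of any member at more than 10 CPM. The gene (ENSMUSG00000041515) lies at chromosome 8, 120736358 to 120756694 on GRCm38, and shares no exon base with another gene. Its promoter is shown first, with those of Irf1 and Irf2, because these 3 members had a smaller RANKL fall in KO cells and held a match to an interferon-related motif. Each sequence is the 250 bases before the RefSeq start site on the plus strand of GRCm38.p6, 5′ to 3′, with motif matches in capitals.
Irf8 (chr8:120736108-120736357): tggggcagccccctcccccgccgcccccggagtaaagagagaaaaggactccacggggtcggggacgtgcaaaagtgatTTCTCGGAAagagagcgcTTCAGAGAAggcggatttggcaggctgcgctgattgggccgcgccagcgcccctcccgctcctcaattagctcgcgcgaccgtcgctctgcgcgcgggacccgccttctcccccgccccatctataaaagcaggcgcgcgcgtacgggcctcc
Irf1 (chr11:53769764-53770013): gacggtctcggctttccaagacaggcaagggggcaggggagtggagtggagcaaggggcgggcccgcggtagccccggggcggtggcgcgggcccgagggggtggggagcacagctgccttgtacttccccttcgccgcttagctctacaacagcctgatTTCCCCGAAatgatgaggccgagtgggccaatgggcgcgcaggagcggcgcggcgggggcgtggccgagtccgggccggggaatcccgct
Irf2 (chr8:46739495-46739744): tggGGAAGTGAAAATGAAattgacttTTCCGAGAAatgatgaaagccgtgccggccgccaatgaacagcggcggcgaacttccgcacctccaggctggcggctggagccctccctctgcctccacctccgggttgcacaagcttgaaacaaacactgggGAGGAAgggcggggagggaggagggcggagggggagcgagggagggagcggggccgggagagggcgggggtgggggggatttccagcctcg
The motifs searched on both strands were GAAANNGAA (core of the interferon-stimulated response element, in 8.56% of 32851 RefSeq windows of 250 bases before and 50 after a start site), TTCNNNGAA (GAS, the STAT element, 8.3%), GGAANNGAA (core of the composite PU.1 and IRF element, 8.24%) and GAGGAA (PU.1 core, 28.3%). The Irf8 window shown held 2 GAS matches, at -171 and -153 from the start site, and the Irf1 window shown held 1, at -90. The Irf2 window held a composite match at -247 that overlaps a response element core at -241, a GAS match at -224, a PU.1 core at -91 and another on the minus strand at 12 bases past the start site, outside the bases printed. The Irf4 window held a PU.1 core on the minus strand at -19. The Irf9 windows held PU.1 cores only. All 8 members had a window, 11 in all, of which 5 held none of the 4 motifs. These were the windows of Irf3, Irf5 and Irf7 and a further window each of Irf1 and Irf8. Irf7 thus had no match, though its RANKL effect also differed between genotypes (0.40). A match describes the letters only.

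Irf8 had 198, 202 and 198 CPM in flox_BMM and 212, 209 and 212 in KO_BMM. With RANKL it had 31.2, 30.5 and 31.8 CPM in flox_OC and 47.2, 45.8 and 48.0 in KO_OC. The 4 groups did not overlap, and both OC groups lay far below both BMM groups. RANKL lowered Irf8 by 6.39-fold in flox cells (log2 change of -2.68 with SE 0.0368, edgeR adjusted p = 1.55e-46) and by 4.49-fold in KO cells (-2.17, SE 0.0345, edgeR adjusted p = 9.63e-44). The 2 RANKL effects differed by 0.51 (SE 0.0526, edgeR adjusted p = 1.04e-10). In OC, KO cells kept 1.51-fold more Irf8 than flox cells (0.59, SE 0.0437, edgeR adjusted p = 4.64e-16). In BMM the KO level was 1.06-fold higher (0.08, SE 0.0292, edgeR adjusted p = 0.0193), a call lost without KO_BMM replicate 1 (adjusted p = 0.0583), without KO_BMM replicate 3 (0.0539) and with DESeq2 (0.0571). The summed macrophage markers and osteoclast markers given above moved over the same groups, and their part in the Irf8 result was not tested.

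**Figure D3:**
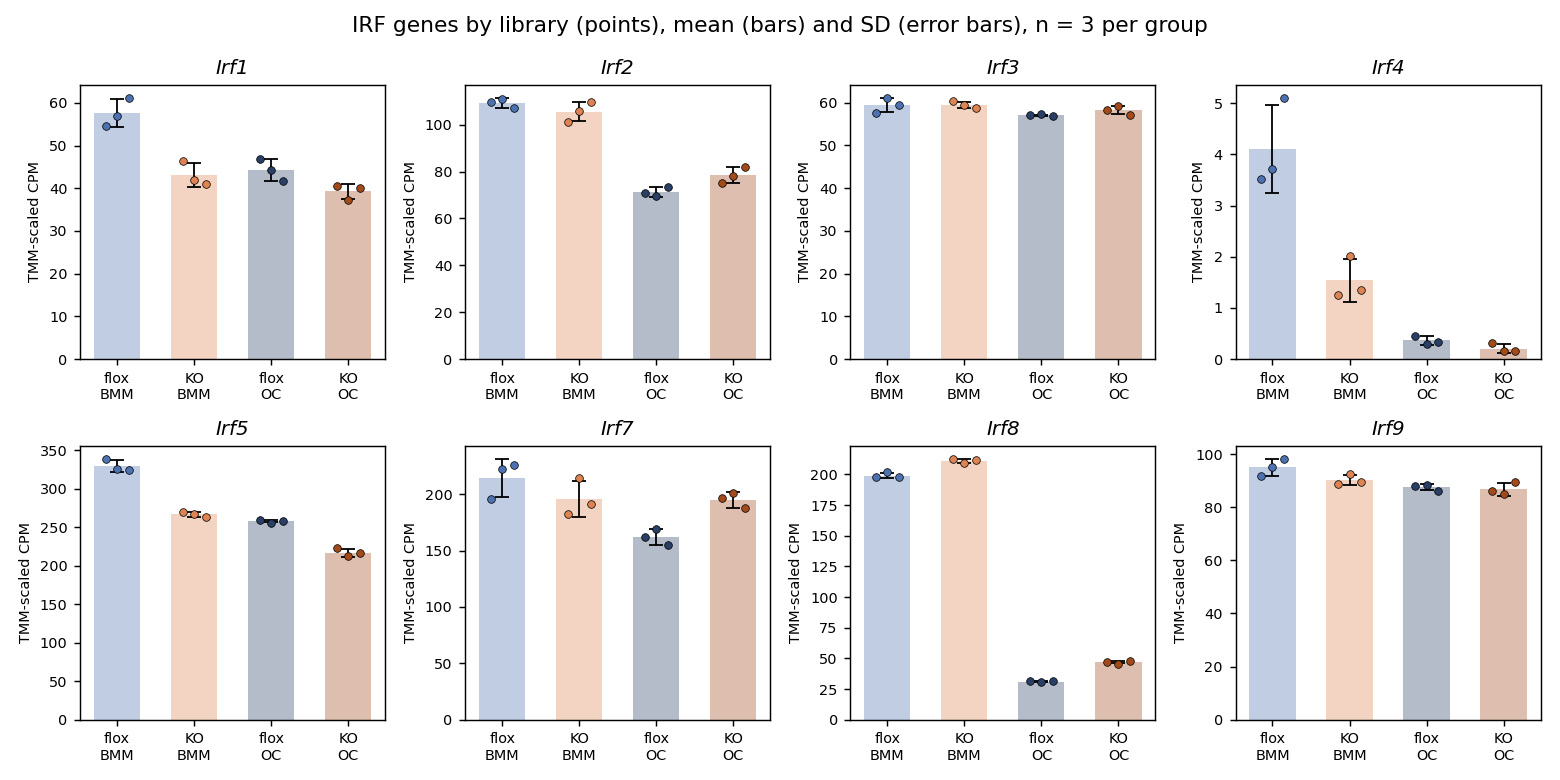
TMM-scaled CPM (vertical axes from 0, a separate scale per gene) of the 8 IRF genes in the 4 groups, with points for libraries, bars for means and error bars for SD (n = 3). Irf8 falls from about 200 CPM in both BMM groups to 31.2 in flox_OC and 47.0 in KO_OC, while Irf3 and Irf9 are nearly level.

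Irf4, the other PU.1 partner and a factor of alternatively activated macrophages, dendritic cells and plasma cells, was scarce, fell with RANKL in both genotypes and was lower in KO in BMM. The gene (ENSMUSG00000021356) lies at chromosome 13, 30749226 to 30766927. It had 62, 72 and 91 counts in flox_BMM, 23, 42 and 28 in KO_BMM, 10, 6 and 7 in flox_OC and 6, 3 and 3 in KO_OC. The BMM groups overlapped neither each other nor the OC groups, while the OC groups overlapped. RANKL lowered it in flox cells (log2 change of -3.47 with SE 0.253) and in KO cells (-2.91, SE 0.368). Irf4 passed the filter on low counts only through the BMM groups, so the direction of these changes was favoured in advance. Their p-values are not given. From summed counts, flox_BMM had 11.2 times the scaled level of flox_OC (95% interval 7.29 to 18.1, counting error only) and KO_BMM 7.73 times that of KO_OC (4.22 to 15.5). In BMM the KO level was lower (log2 change of -1.40 with SE 0.185, edgeR adjusted p = 1.66e-08). In OC the ratio of flox to KO was 1.82 with an interval of 0.868 to 4.01, so a difference was not detectable at this depth (edgeR adjusted p = 0.197). Dendritic and B cells also express Irf4. The 8 conventional dendritic cell markers, mostly Itgax, summed to 168.8 to 178.2 CPM in flox_BMM, 128.7 to 146.7 in KO_BMM, 164.3 to 175.4 in flox_OC and 148.6 to 153.9 in KO_OC, with Clec9a at 0 in KO_BMM. The 6 plasmacytoid markers, mostly Tcf4, summed to 166.0 to 169.7, 145.1 to 148.5, 78.0 to 81.5 and 71.1 to 74.6 CPM, with Klk1 at 0 in every group. The 7 B cell markers, mostly Ighm, summed to 26.5 to 28.2, 16.9 to 18.6, 11.9 to 13.1 and 7.68 to 8.13 CPM, with Pax5 at 0 in both BMM groups. The part of these cells in the Irf4 result was not tested.

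Irf1, an interferon gamma-induced activator, was lower in KO than in flox in both cultures. The gene (ENSMUSG00000018899) lies at chromosome 11, 53770014 to 53778374. It had 54.6, 57.0 and 61.1 CPM in flox_BMM, 46.4, 41.8 and 41.1 in KO_BMM, 47.0, 44.3 and 41.7 in flox_OC and 40.6, 37.3 and 40.0 in KO_OC. Flox_BMM stood above every other library. In BMM the KO level was lower (log2 change of -0.42 with SE 0.0504, edgeR adjusted p = 2.87e-09). In OC it was lower (-0.18, SE 0.0522, edgeR adjusted p = 0.0057), a call lost without flox_OC replicate 1 (adjusted p = 0.0736) or KO_OC replicate 2 (0.0566). RANKL lowered Irf1 in flox cells (-0.38, SE 0.0497, edgeR adjusted p = 6.71e-09). In KO cells the change was -0.13 (SE 0.053, edgeR adjusted p = 0.0267), but it was 0.00 when scaled by library size alone, and the call was lost without KO_BMM replicate 1 (adjusted p = 0.228), without KO_OC replicate 2 (0.156) and with DESeq2 (0.0534). The 2 RANKL effects differed by 0.24 (SE 0.0727, edgeR adjusted p = 0.0111), with an adjusted p of 0.0603 without KO_BMM replicate 3 and 0.0511 without flox_OC replicate 3.

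Irf2, which binds the same elements as IRF1 and mostly represses, was lowered by RANKL in both genotypes, less so in KO cells. The gene (ENSMUSG00000031627) lies at chromosome 8, 46739745 to 46847458. It had 110, 111 and 107 CPM in flox_BMM, 101, 106 and 110 in KO_BMM, 70.8, 69.5 and 73.4 in flox_OC and 75.3, 77.9 and 82.1 in KO_OC. The BMM groups overlapped and the OC groups did not. RANKL lowered Irf2 in flox cells (-0.62, SE 0.0381, edgeR adjusted p = 7.38e-20) and in KO cells (-0.43, SE 0.0376, adjusted p = 2.47e-14). In OC the KO level was higher (log2 change of 0.14 with SE 0.0393, edgeR adjusted p = 0.00355; 0.0574 without KO_OC replicate 3). The difference of the RANKL effects was 0.19 (SE 0.0536, edgeR adjusted p = 0.00762; 0.051 without KO_OC replicate 3). In BMM the genotype change of -0.05 was not called.

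Irf5, which acts below Toll-like receptors and is known for inflammatory cytokine genes, was lower in KO and lower with RANKL. The gene (ENSMUSG00000029771) lies at chromosome 6, 29526625 to 29541869, and 14.2% of its exon bases overlap Tnpo3 on the other strand. Since reads were counted without strand, reads of the pair there cannot be told apart. It had 339, 326 and 325 CPM in flox_BMM, 270, 267 and 264 in KO_BMM, 259, 256 and 258 in flox_OC and 223, 213 and 216 in KO_OC. The 4 groups did not overlap. The KO level was lower in BMM (log2 change of -0.31 with SE 0.028, edgeR adjusted p = 6.28e-13) and in OC (-0.25, SE 0.0286, adjusted p = 4.72e-10). RANKL lowered it in both genotypes, with log2 fold changes of -0.35 for flox and -0.30 for KO (edgeR adjusted p = 6.44e-16 and 5.38e-13). The difference between those effects was 0.06 with a 95% interval of -0.02 to 0.14, and was not called (edgeR adjusted p = 0.343).

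Irf7, the interferon-induced amplifier of type I interferon production, fell with RANKL in flox cells and had no called change in KO cells. The gene (ENSMUSG00000025498) lies at chromosome 7, 141262706 to 141266481. It had 195, 222 and 226 CPM in flox_BMM, 183, 214 and 191 in KO_BMM, 162, 169 and 155 in flox_OC and 196, 201 and 188 in KO_OC. Flox_OC was the low group and the other 3 overlapped. RANKL lowered it in flox cells (-0.41, SE 0.0715, edgeR adjusted p = 4.79e-04), and the change in KO cells was -0.01 (adjusted p = 0.927; 0.13 and not called when scaled by library size alone). These effects differed by 0.40 (SE 0.101, edgeR adjusted p = 0.0187). In OC the KO level was higher (log2 change of 0.27 with SE 0.0715, edgeR adjusted p = 0.0134). In BMM the change of -0.13 was not called (edgeR adjusted p = 0.183), but was called without flox_BMM replicate 1 (0.0251), without KO_BMM replicate 2 (0.00597), without the filter on low counts (0.0277) and without robust estimation of the spread (0.0229).

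Irf3, the constitutive sensor-activated partner of IRF7, and Irf9, the DNA-binding part of ISGF3, changed least. Irf3 (ENSMUSG00000003184, chromosome 7, 44997648 to 45002848) lay between 57.0 and 61.0 CPM in all 12 libraries and was called in none of the 5 comparisons. Its RANKL changes of -0.06 in flox and -0.03 in KO cells turned to 0.11 in both when scaled by library size alone, where both were called (edgeR adjusted p = 0.0127 and 0.0154). Irf9 (ENSMUSG00000002325, chromosome 14, 55603571 to 55610030) had 91.6, 95.2 and 98.1 CPM in flox_BMM, 88.7, 92.4 and 89.5 in KO_BMM, 88.0, 88.4 and 86.1 in flox_OC and 85.9, 84.9 and 89.3 in KO_OC. Its only called change was with RANKL in flox cells, -0.12 (SE 0.0361, edgeR adjusted p = 0.00314), which was 0.05 when scaled by library size alone. In BMM its genotype change of -0.07 (edgeR adjusted p = 0.102) was called without flox_BMM replicate 1 (0.0461). Between 1.49% and 3.4% of the exon bases of Irf1, Irf3, Irf7 and Irf9 overlap another gene, and none of Irf2, Irf4 or Irf8.

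The receptors, kinases and adaptors that activate IRF3, IRF5 and IRF7 mostly fell with RANKL. Of 22 tested, 4 rose and 17 fell in flox cells (median log2 fold change -0.59 against -0.004 over all genes), and 3 rose and 14 fell in KO cells (-0.17 against 0.00). Among all genes, 37% rose and 37.8% fell in flox cells, and 35.5% and 35% in KO cells. Scaled by library size alone, 7 rose in KO cells. Between genotypes, 3 were higher and 8 lower in BMM (median -0.02 against 0.00), with 5 higher under library size alone, and 11 were higher and 3 lower in OC (0.12 against 0.01). The shares of all genes were 19.3% higher and 20.6% lower in BMM, and 21.4% and 19.9% in OC. A higher RANKL effect in KO was called for 9 and a lower one for 1, Mavs (-0.32), beside 12.3% and 9.53% of all genes. Tlr9, the endosomal DNA receptor upstream of IRF7, had a median of 8.09 CPM in flox_BMM, 7.80 in KO_BMM, 3.31 in flox_OC and 8.18 in KO_OC, and the flox_OC libraries (3.16 to 4.0 CPM) lay below all others. Its RANKL effects differed by 1.18 (SE 0.156, edgeR adjusted p = 6.06e-08). The RNA sensors Ifih1 (0.45) and Ddx58 (0.34) and the kinase Ikbke (0.33) also had called differences. Traf3, an adaptor, rose with RANKL, with log2 fold changes of 1.41 for flox and 1.55 for KO.

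The 10 interferon genes on the list were barely detected. Of these, 9 had 0 counts in all libraries and the largest count of any gene in 1 library was 2. Type I and II interferon receptors, their JAK-STAT components and the pathway inhibitors Socs1, Usp18, Ptpn2 and Ptpn6 were all tested. Of the 13, 0 were higher and 8 lower in KO BMM (median -0.13 against 0.00), and the 0 held at an unadjusted edgeR p under 0.05 and with DESeq2. In OC 4 were higher and 2 lower (0.04 against 0.01), with 1 lower without flox_OC replicate 1, 2 or 3, without KO_OC replicate 3, without the filter on low counts and with DESeq2. Over all genes, 19.3% were higher and 20.6% lower in KO BMM, and 21.4% and 19.9% in KO OC. With RANKL 4 of the 13 rose and 9 fell in flox cells (-0.22 against -0.004), beside 37% and 37.8% of all genes. In KO cells 7 rose and 5 fell (0.07 against 0.00; 3 fell under library size alone), beside 35.5% and 35%. The largest rises with RANKL were of the inhibitors Socs1 and Ptpn2 in both genotypes, with Usp18 next in KO cells. For 8 the RANKL effect was higher in KO, and for 1 it was lower, Socs1 (-0.79), beside 12.3% and 9.53% of all genes. That single lower call was lost without flox_BMM replicate 3, without KO_BMM replicate 1, 2 or 3, without flox_OC replicate 3, without KO_OC replicate 1 or 2, without the filter on low counts and with DESeq2. Ifngr1, a chain of the interferon gamma receptor, had 214 to 237 CPM in flox_BMM, 176 to 182 in KO_BMM, 154 to 158 in flox_OC and 175 to 180 in KO_OC. Its genotype change was -0.32 in BMM and 0.19 in OC (edgeR adjusted p = 5.5e-12 and 3.5e-06), and the difference was 0.51.

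Genes of the type I interferon signature, the targets of ISGF3, IRF3 and IRF7, were called in both cultures. Over all genes, 19.3% were higher and 20.6% lower in KO BMM, and 21.4% and 19.9% in KO OC. RANKL raised 37% and lowered 37.8% of all genes in flox cells, and 35.5% and 35% in KO cells. Its effect was called higher in KO for 12.3% and lower for 9.53%. Of 32 tested, 0 were higher and 18 lower in BMM (median -0.19 against 0.00), and the 0 held at an unadjusted edgeR p under 0.05 and with DESeq2. In OC 15 were higher and 2 lower (0.12 against 0.01). The 2 became 4 without flox_BMM replicate 1, without flox_OC replicate 3 or in a fit of the OC groups alone, 1 without flox_OC replicate 1, flox_OC replicate 2 or KO_OC replicate 2, and 0 without KO_OC replicate 1. With RANKL 6 rose and 23 fell in flox cells (-0.30 against -0.004). In KO cells 9 rose and 15 fell (-0.06 against 0.00), which turned to 15 and 8 when scaled by library size alone. In KO the RANKL effect was higher for 19 and lower for 0 (0.30 against 0.01), and the 0 held at an unadjusted edgeR p under 0.05 and with DESeq2. Since this difference is the genotype change in OC minus that in BMM, it is not a separate observation. Mx1, an antiviral GTPase, had 10.4 to 14.5 CPM in flox_BMM, 10.4 to 10.6 in KO_BMM, 3.47 to 4.15 in flox_OC and 5.33 to 6.48 in KO_OC. RANKL lowered Mx1 in both genotypes (log2 fold change -1.77 for flox, -0.85 for KO), and the effects differed by 0.92 (edgeR adjusted p = 1.8e-05). Ifit1, an RNA-binding antiviral protein, was lower in KO, with log2 fold changes of -0.94 in BMM and -0.29 in OC.

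**Figure D4:**
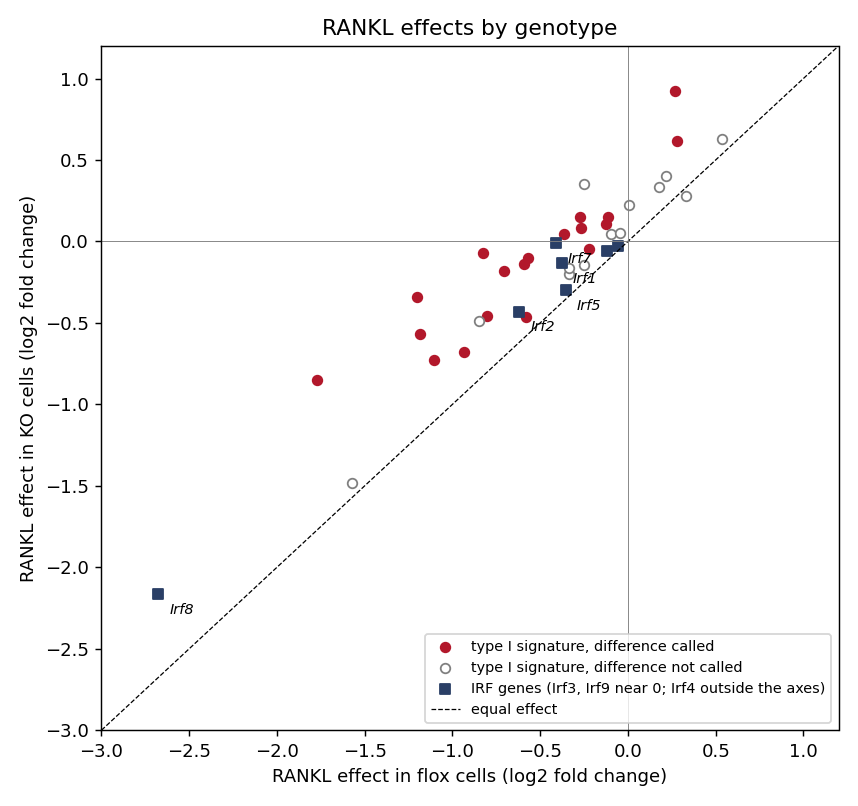
RANKL effect (log2 fold change) in flox cells (horizontal axis) against KO cells (vertical axis) for the 32 type I interferon signature genes (circles, red where the difference is called) and the IRF genes except Irf4, which is not drawn (squares), with a dashed line of equal effect. Of the 32 circles, 31 lie above the line, 19 of them called. The median difference over all genes is 0.01. Each IRF gene drawn has a positive difference, called for Irf1, Irf2, Irf7 and Irf8. That of Irf3 is 0.03, and -0.003 when scaled by library size alone.

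Of 21 genes of the interferon gamma and IRF1 signature tested, 2 were higher and 5 lower in KO BMM (median -0.04 against 0.00), where 39.9% of all genes were called. In KO OC, 8 were higher and 5 lower (0.07 against 0.01), beside 41.3% of all genes. With RANKL 6 rose and 10 fell in flox cells (-0.31 against -0.004), beside 74.8% of all genes called. In KO cells 7 rose and 10 fell (-0.16 against 0.00; 5 fell under library size alone), beside 70.5%. The RANKL effect was higher in KO for 7 and lower for 3, beside 12.3% and 9.53% of all genes. The 3 became 1 without KO_OC replicate 3 and with DESeq2. Cxcl10, a chemokine, rose with RANKL from a median of 5.87 CPM to 49.7 in flox cells and from 2.28 to 42.4 in KO cells. Iigp1, an interferon-inducible GTPase, was higher in KO, with log2 fold changes of 0.61 in BMM and 1.80 in OC. It averaged 3.29 CPM in flox_BMM, 5.03 in KO_BMM, 0.454 in flox_OC and 1.62 in KO_OC. Cd274, the checkpoint ligand PD-L1, was lower in KO, by log2 fold changes of -1.14 (BMM) and -1.62 (OC).

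Genes tied to IRF8 in macrophages mostly fell with RANKL. Of 12 tested, 11 fell and 1, Klf4, rose in flox cells (median -0.81 against -0.004) and likewise in KO cells (-0.52 against 0.00). Among all genes, 37.8% fell and 37% rose in flox cells, and 35% and 35.5% in KO cells. Between genotypes, 4 were higher and 6 lower in BMM (-0.12 against 0.00), beside 19.3% and 20.6% of all genes. In OC 4 were higher and 1 lower (0.04 against 0.01), beside 21.4% and 19.9%. The 1 lower became 2 without flox_BMM replicate 1, 2 or 3, flox_OC replicate 2 or KO_OC replicate 1, and with DESeq2. It was also 2 with RLE scaling in place of TMM, under library size alone, with a filter of 1 CPM in 3 libraries and in a fit of the OC groups alone. Cybb, the catalytic subunit of the phagocyte oxidase, had 1105 to 1257 CPM in flox_BMM, 1267 to 1275 in KO_BMM, 579 to 611 in flox_OC and 788 to 812 in KO_OC. It was higher in KO OC by 0.41 (edgeR adjusted p = 3.6e-13), and its RANKL effects differed by 0.30. The RANKL effect was higher in KO for 5 of the 12 and lower for 1, Pml, beside 12.3% and 9.53% of all genes. That 1 became 3 without flox_BMM replicate 1, 2 under library size alone, and 0 without KO_BMM replicate 2 or KO_OC replicate 1.

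Genes that surround IRF8 in osteoclast formation, repressors and activators together, were mostly lower in KO OC. Of 13 tested on that list, 9 rose and 4 fell with RANKL in flox cells (median 1.29 against -0.004), beside 37% and 37.8% of all genes. In KO cells 9 rose and 3 fell (0.49 against 0.00), beside 35.5% and 35%. Ocstamp passed the filter on low counts only through the OC groups, so its rise was favoured in advance and is counted without being support. In OC, 1 was higher in KO and 11 were lower (-0.76 against 0.01), beside 21.4% and 19.9%. In BMM 3 were higher and 8 lower (-0.55 against 0.00), beside 19.3% and 20.6%. The RANKL effect was higher in KO for 4 and lower for 6, beside 12.3% and 9.53%. Bcl6, a repressor of osteoclast formation, had 115 to 129 CPM in flox_BMM, 83.6 to 85.5 in KO_BMM, 88.5 to 95.7 in flox_OC and 81.5 to 81.9 in KO_OC. Unlike Irf8 it was lower in KO in both cultures, with log2 fold changes of -0.55 in BMM and -0.17 in OC (edgeR adjusted p = 5.23e-17 and 0.00031). It fell with RANKL in flox cells (-0.42), while KO cells, which began from a lower level, showed -0.04 with no call (edgeR adjusted p = 0.309). Prdm1, which encodes BLIMP1 and is known to repress Irf8 and Bcl6 in osteoclast precursors, was also lower in KO. It had 15.5 to 16.9 CPM in flox_BMM, 5.43 to 7.11 in KO_BMM, 37.3 to 42.0 in flox_OC and 6.51 to 8.28 in KO_OC. Its level in OC was lower in KO (log2 fold change -2.37, edgeR adjusted p = 1.1e-29), and the RANKL effects differed by -1.04. Nfatc1, the master regulator of osteoclasts, had 96.5 to 102 CPM in flox_BMM, 115 to 118 in KO_BMM, 348 to 352 in flox_OC and 194 to 201 in KO_OC, with RANKL effects of 1.82 and 0.77 that differed by -1.05. The osteoclast markers, which overlap this list, were lower in KO_OC than in flox_OC, and the part of that difference in these values was not tested.

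**Figure D5:**
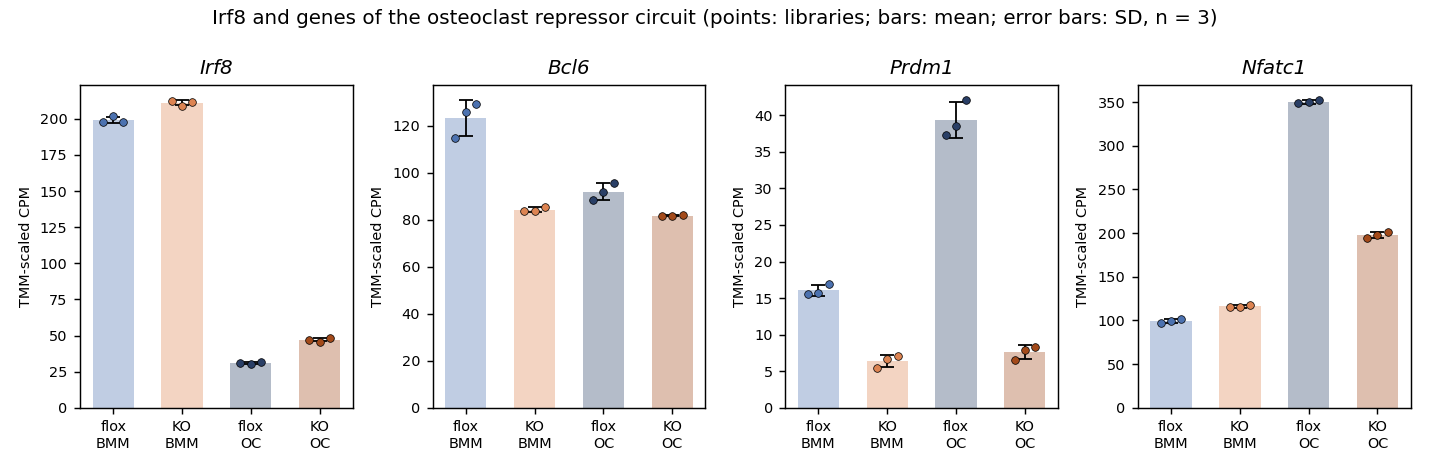
TMM-scaled CPM (vertical axes from 0) of Irf8, Bcl6, Prdm1 and Nfatc1 in the 4 groups, with points for libraries, bars for means and error bars for SD (n = 3). In KO_OC, Irf8 is above flox_OC, and Bcl6, Prdm1 and Nfatc1 are below it.

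Genes tied to IRF4 showed no common direction. Of 9 tested, 2 were higher and 4 lower in KO BMM (median -0.21 against 0.00), beside 39.9% of all genes called. In KO OC 1 was higher and 4 lower (-0.26 against 0.01), beside 41.3%. With RANKL 4 rose and 3 fell in flox cells (0.11 against -0.004), beside 74.8%, and 4 rose and 4 fell in KO cells (-0.47 against 0.00), beside 70.5%. The 1 higher in OC, Mgl2, was lost without flox_OC replicate 3 or KO_OC replicate 3 and with DESeq2. The RANKL effect was higher in KO for 0 and lower for 2, the mannose receptor Mrc1 (-0.44) and Il1rn (-0.36), beside 12.3% and 9.53% of all genes. The 0 was 1 at an unadjusted edgeR p under 0.05 and 0 with DESeq2, and was 1 by the adjusted p without flox_BMM replicate 1 or 3, KO_BMM replicate 1 or flox_OC replicate 2. Of the 9 cytokine genes tied to IRF5, only Tnf, Ccl5 and Cxcl10 had enough counts to be tested. Tnf was lower in KO, with log2 fold changes of -0.66 in BMM and -0.14 in OC (edgeR adjusted p = 1.4e-15 and 0.032), and Ccl5 was called in no comparison. In OC the 2 genes called lower were Tnf and Cxcl10, and Tnf was the nearer to the threshold. The 2 became 1 without flox_OC replicate 1 or 3, without KO_OC replicate 1 or 3, without the filter on low counts and with DESeq2.

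Of 15 IRF binding partners and cofactors tested, 2 were higher and 4 lower in KO BMM (median -0.07 against 0.00), where 39.9% of all genes were called. In KO OC, 5 were higher and 4 lower (-0.02 against 0.01; 3 higher without flox_OC replicate 3), beside 41.3% of all genes. With RANKL 5 rose and 8 fell in each genotype, with medians of -0.28 against -0.004 in flox and -0.15 against 0.00 in KO cells, beside 74.8% and 70.5% of all genes called. Spib passed the filter on low counts only through the OC groups, and Batf3 only through the BMM groups. Their directions with RANKL were thus favoured in advance, and they are counted here without being support. The RANKL effect was higher in KO for 3 and lower for 2, Spi1 and Irf2bpl, beside 12.3% and 9.53% of all genes. Spi1, which encodes PU.1, rose with RANKL (log2 fold change 0.55 for flox, 0.43 for KO) and was lower in KO (-0.13 in BMM, -0.25 in OC). Irf2bpl, an IRF2-binding protein relative, had 94.2 to 114 CPM in flox_BMM, 84.3 to 84.9 in KO_BMM, 72.2 to 77.4 in flox_OC and 40.5 to 41.9 in KO_OC, where each KO_OC library was below all others.

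The genes whose pattern over the 12 libraries was most like a member were sought for Irf4 and Irf8, the members whose group means span more than 2-fold. Likeness was the root mean square difference of log2 CPM after centring each gene. For Irf8, among 9672 genes, the closest were Ms4a6b (0.0643), a membrane protein, Zcchc24 (0.0894) and Csf3r (0.1), the receptor of G-CSF. Ms4a6b had 88.2, 92.3, 14.8 and 21.8 CPM in flox_BMM, KO_BMM, flox_OC and KO_OC. For Irf4, among 9673 genes, they were the potassium channel Kcnj10 (0.253), Abcd2 (0.384) and Ctla2b (0.411), and the low counts of Irf4 limit how close a match can be.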

How the data were processed

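RNA-seq was analysed in 12 libraries, 3 in each of 4 groups taken from the sample titles. The authors deposited whole-number read counts for each gene, not normalized. The submitters' processing notes name STAR 2.0.4b, GRCm38 and Subread featureCounts. The file headers give featureCounts 1.4.5-p1, Ensembl release 76, exons summed by gene identifier and strand setting 0. The deposited exon length per gene, another value in the files, per the file headers, was used for TPM. Read filters: not given in the sources used here. The headers show no setting for multi-mapping reads. Of 41388 identifiers, 40254 had a symbol, and the others held 0.136% of counts. Libraries were scaled by TMM in edgeR 4.0.16 (R 4.3.3), filtered with filterByExpr to 13030 genes and fitted with robust quasi-likelihood over all 4 groups, with no covariate. CPM are TMM-scaled. Benjamini-Hochberg adjustment ran over all tested genes, and the 5 comparisons were tested separately. The code was tested on simulated data. Alternatives were DESeq2 1.42.0, other scalings, other filters, the compared groups alone, a replicate block and leaving out each of the 12 libraries.

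Named genes were the 8 IRF genes, per pathway list and comparison up to 4 called members with the largest change (mean of 1 CPM or more where higher) (up to 2 of the highest level where none was called), and the 3 genes of at least 5 CPM most like a member. Other genes named for a count or a known role were chosen after their values were seen. The members and the 10 pathway and 9 marker lists were chosen with earlier results of these data known. Of 221 listed symbols, 2 were not found. Intervals of Irf4 ratios cover counting error only, and that of the Irf5 difference comes from the edgeR standard error. Promoter sequences are from RefSeq on GRCm38.p6, the build of the files. Some genes are not reported here.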

Additional observations from a re-analysis of the deposited data

Results flagged for a closer look

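The RANKL effect differed between flox and KO cells for 4 IRF genes, by a test of the difference itself in edgeR with adjustment over all genes. The differences, KO minus flox on the log2 scale, were 0.51 for Irf8 (adjusted p = 1.04e-10), 0.40 for Irf7 (adjusted p = 0.0187), 0.24 for Irf1 (adjusted p = 0.0111) and 0.19 for Irf2 (adjusted p = 0.00762). In each case the RANKL effect was more negative in flox cells. The differences of Irf1 and Irf2 were each lost on leaving out single libraries, Irf1 without KO_BMM replicate 3 or flox_OC replicate 3 (0.0603 and 0.0511) and Irf2 without KO_OC replicate 3 (0.051).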

How the results depend on the processing

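Of 792 alternative values of the 8 IRF genes, 770 kept their side of the threshold, 14 lost a call and 8 gained one. The sign changed in 10, of which 6 were called neither before nor after. The other 4 all came with scaling by library size alone: Irf3 (0.11) and Irf9 (0.05) with RANKL in flox cells, and Irf1 (0.004) and Irf3 (0.107) in KO cells, and this scaling gave 1 IRF gene called higher with RANKL in each genotype. With DESeq2, 0 IRF genes were higher in KO BMM. Leaving out 1 library gave 0 to 1 IRF genes higher and 3 to 5 lower in KO BMM, 2 to 3 higher and 1 to 2 lower in KO OC, 4 to 5 lower with RANKL in KO cells and 3 to 4 with a higher RANKL effect in KO. Libraries with the same replicate number did not deviate together (18 pairs, r from -0.067 to 0.084). A small shared effect could be missed in this way, and the labels do not say what the number means. With a replicate block, 4 IRF genes were lower in KO BMM, where Irf7 was then called (-0.13, adjusted p = 0.014), and the other counts of IRF genes were as in the fit without it. Depth limits Irf4 in OC, at 3 to 10 counts per library. Other causes of these changes were not tested.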

Other observations

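The 8 IRF genes summed to 866.6 ± 21.2 TPM in flox_BMM, 798.9 ± 16.5 in KO_BMM, 700.8 ± 8.81 in flox_OC and 710.2 ± 7.04 in KO_OC (SD, n = 3). Irf8 made up 9.15% of that sum in flox_BMM, 10.9% in KO_BMM, 2% in flox_OC and 3% in KO_OC. Irf5 held 36.8%, 33.3%, 40.2% and 33.7%, and Irf7 held 23%, 23.5%, 24.3% and 29.1% in the same order. In KO_OC the shares of Irf5 (33.1% to 34.4%) and Irf7 (28.1% to 30.1%) came closest to each other, and they did not overlap.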
